A study of Carassius gibelio with 26 samples.

Results

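The mitochondrial genome encodes 2 ribosomal RNAs, 12S and 16S, and both were followed in the testes of 26 gibel carp (Carassius gibelio) males by RNA sequencing. They are 2 of the 62131 genes in the count table and were taken by position on the mitochondrial sequence (MT) of the goldfish annotation ASM336829v1. The 12S gene (ENSCARG00000000003) spans bases 991 to 1944 on the + strand, and the 16S gene (ENSCARG00000000005) spans bases 2017 to 3697 on the + strand. The table gives these rows no names, so the names rest on length and place: the rows are 954 and 1681 bases long, a row of 72 bases lies between them, and ND1 follows the second after a row of 78 bases. That is the usual vertebrate order of tRNA, 12S, tRNA, 16S, tRNA and ND1. The other 35 rows of the mitochondrial sequence are 13 protein-coding genes and 22 tRNA genes. Each of the 13 coding rows matched 1 gene of RefSeq's gibel carp table (carGib1.2-hapl.c) in length to within 2 bases and is called by that gene's name.

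In a mitochondrial ribosome the 12S RNA is the backbone of the small subunit, which reads the mRNA, and the 16S RNA is the backbone of the large subunit, which joins amino acids. The subunits together make the proteins that the mitochondrial genome encodes, all of them parts of the respiratory chain and of ATP synthase. In mammals both rRNAs are cut from the same heavy-strand transcripts as most mitochondrial mRNAs, with tRNAs marking the cuts. There, mitochondrial rRNA is more abundant than mRNA. Mammalian mitochondrial rRNAs carry only short A tails, while most mitochondrial mRNAs carry longer ones. The libraries were enriched for poly(A) RNA, so the counts cover the captured share of each rRNA, and capture cannot be told apart from abundance in any comparison here.

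Triploid (3n) males came from gynogenesis, in which sperm only activates the egg; sperm of Carassius gibelio, Cyprinus carpio or Abramis brama was used. Group 1 (n = 5) was kept at 28 or 31 °C and came from a female whose brood did not reverse sex at 22 °C. Group 2 (n = 5, 28 to 31 °C) and group 3 (n = 6, 22 °C) came from a female with many sex-reversed offspring already at 22 °C. Diploid (2n) males (n = 10) were bred by sexual crosses and their eggs kept at 22 °C. All males were reared to 2 years of age. Against 2n males, the triploid groups differ at once in ploidy, mode of reproduction, mother and, for groups 1 and 2, temperature, which cannot be told apart. Library names hold a further number whose meaning is not given: it is 4, 5 or 6 for group 1 males, 11 for group 2 males, 11 or 12 for group 3 males, and 14, 106 or 108 for 2n males. Library names also end in 31 or 28 in group 1 and in 31 in all of group 2, again without a stated meaning. Among triploid males, group 1 differs from group 2 in mother, in the further number and in the mix of endings, and from group 3 in temperature as well. These cannot be told apart either. Males that share a mother are not independent genotypes. The tests set group differences against the spread between related fish, so their p-values do not extend to other mothers.

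Library totals ran from 15375923 to 29503544 counts. The 12S gene had 168 to 1139 counts per library and the 16S gene 5354 to 23260. The lowest 12S count, 168, has an exact Poisson 95% interval of 144 to 195, which covers counting error only. Levels are given as CPM, the counts of a gene per 1000000 counts of its library. Libraries of group 1 replicates 1 and 2 stood apart in composition, with TMM scaling factors of 1.51 and 1.45, against 1.04 to 1.07 in the other group 1 males, 0.86 to 0.91 in group 2, 0.78 to 0.97 in group 3 and 0.95 to 1.20 in 2n males. The testis label could not be checked on marker genes, as 0 of the 62131 IDs matched the gene table. In such tissue RNA, fewer cells of a type and less RNA per cell cannot be told apart.

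The 2 rRNAs were far from equal. Per kilobase of gene, 16S averaged 165.5 CPM in group 1, 163.9 in group 2, 175.5 in group 3 and 304.5 in 2n males. On the same per-kilobase scale 12S averaged 22.6 CPM in group 1, 10.0 in group 2, 9.26 in group 3 and 27.6 in 2n males. COX1, the catalytic subunit of cytochrome c oxidase, was the highest mitochondrial gene in all 4 groups, with 2243, 1898, 2035 and 2198 CPM per kilobase in groups 1, 2 and 3 and in 2n males. Among the 15 rRNA and coding genes ordered by level per kilobase, 16S stood at place 11 in group 1, 9 in groups 2 and 3 and 8 in 2n males, and 12S at place 14, 14, 14 and 13. Only ND6, the complex I subunit encoded on the other strand, was lower than 12S in every group, with ATP8 lower as well in 2n males. The ATP8 row is 165 bases long and overlaps ATP6 from base 9035, and pairs that touch both may go uncounted. Both rRNAs together made up 2.99% of mitochondrial counts in group 1, 3.79% in group 2, 3.66% in group 3 and 5.29% in 2n males. The 3 tRNA rows that flank and separate the rRNAs had 0 counts in all 26 libraries. For 1 row in 1 library alone, 0 counts allow an expected count of up to 3 (one-sided 95% Poisson limit). The 26 libraries together set a tighter limit, which was not computed. All 22 tRNA rows together had 4 to 23 counts per library. Those 3 rows are 69, 72 and 78 bases long and adjoin 12S, 16S or ND1 without a gap. Pairs that reach into a neighbouring gene may go uncounted, which cannot be told apart from a lack of RNA.

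The level of 12S was high and uneven in group 1 and in part of the 2n males, and low and even in groups 2 and 3. In group 1 it was 12.5, 23.8, 33.8, 13.4 and 24.5 CPM in replicates 1 to 5, and in group 2 it was 10.1, 9.15, 10.8, 7.79 and 9.87 CPM. In group 3 the lowest, median and highest 12S levels were 7.08, 9.15 and 10.0 CPM, and in 2n males 8.74, 25.7 and 56.9 CPM. Every group 1 male lay above every male of groups 2 and 3, whose ranges overlapped, while the 2n males overlapped all 3 triploid groups. How many other genes show such a gap was not counted, so it does not set 12S apart. CPM scales by library totals only, and on that scale genes in general ran higher in group 1. Their median shift was 0.58 in log2 units against group 2 and 0.59 against group 3. The means were 21.6 ± 8.83 CPM in group 1 (SD, n = 5), 9.56 ± 1.16 in group 2 (n = 5), 8.83 ± 1.05 in group 3 (n = 6) and 26.3 ± 15.9 in 2n males (n = 10). In the order of the means, group 2 overlapped its neighbour group 3 and group 1 overlapped 2n males, while groups 1 and 2, also neighbours, did not overlap.

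In CPM, the level of 16S had close means in the 3 triploid groups and reached higher in 2n males. In group 1 it was 256, 329, 305, 206 and 296 CPM in replicates 1 to 5, and in group 2 it was 253, 245, 347, 273 and 260 CPM. In group 3 the lowest, median and highest 16S levels were 251, 299.6 and 337 CPM, and in 2n males 213.5, 417 and 1162 CPM. All 4 ranges overlapped, but no triploid male reached the 2n median. The means were 278 ± 48.5 CPM in group 1, 276 ± 41.3 in group 2, 295 ± 31.6 in group 3 and 512 ± 288 in 2n males (SD, n = 5, 5, 6 and 10). The closeness depends on the scaling. Scaled by TMM, 16S ran from 169 to 288 CPM in group 1 and from 282 to 395 in group 2. On that scale it ran from 316 to 355 in group 3 and from 189 to 1093 in 2n males.

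**Figure D1:**
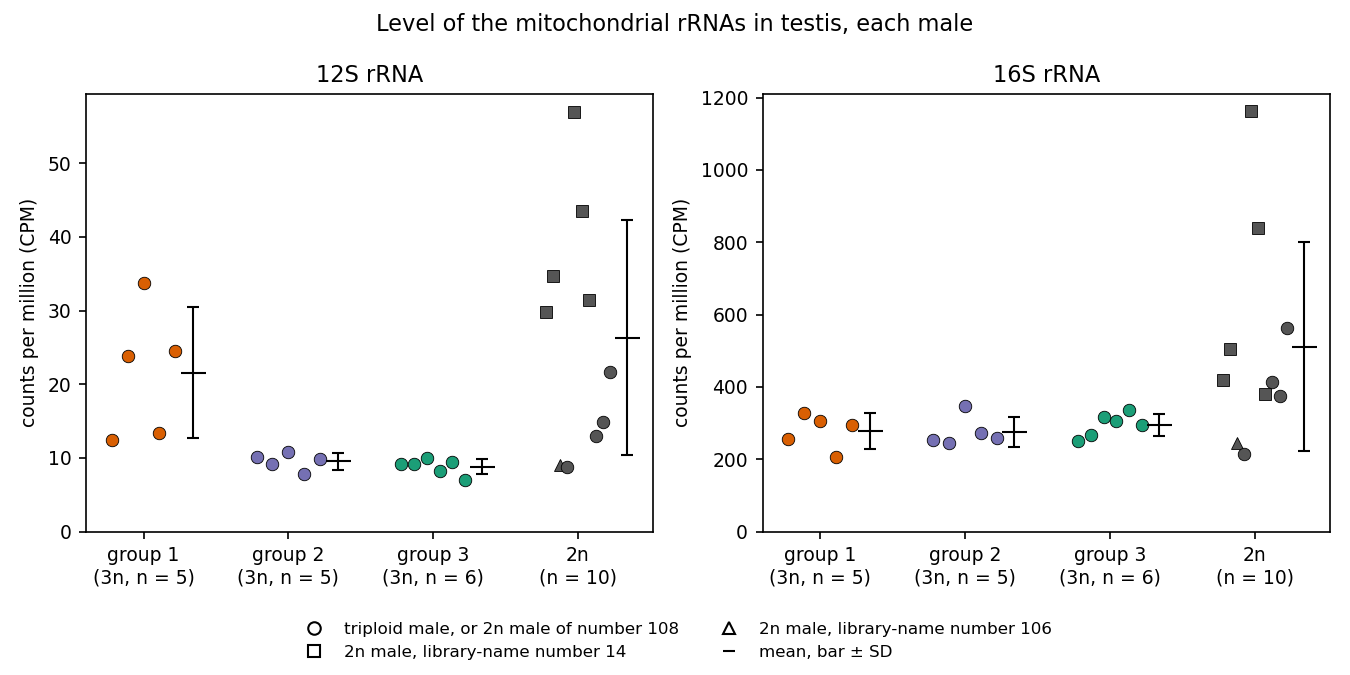
Level of 12S (left) and 16S (right) in CPM, 1 point per male, for groups 1, 2 and 3 (triploid) and 2n males, with the mean and SD beside each group. In groups 2 and 3 the 12S level stays at or under 10.8 CPM, and the 2n males of library-name number 14 (squares) stand above the other 2n males at 29.8 to 56.9 CPM.

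With all triploid males set against the 2n males, both rRNAs were lower. The log2 fold change of 12S was -0.94 ± 0.27 (SE, edgeR's quasi-likelihood test, adjusted p = 0.0127) and that of 16S -0.71 ± 0.20 (edgeR adjusted p = 0.00937), over 16 triploid and 10 diploid males. A call means a Benjamini-Hochberg adjusted p under 0.05 over all genes tested, and 25.5% of the 39578 genes were called in this comparison. None of the 13 coding genes was called by edgeR, and their log2 fold changes ran from -0.19 to 0.17 with a median of -0.091, beside a median of -0.024 over all genes tested.

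This difference rested on which 2n males were used. The 5 males of number 14 had 12S levels of 29.8, 34.7, 56.9, 43.5 and 31.4 CPM, and the 4 males of number 108 had 8.74, 12.9, 14.8 and 21.6 CPM, with no overlap. The single male of number 106 had 9.05 CPM. For 16S the number 14 males had 419, 504, 1162, 840 and 379 CPM, and the number 108 males 213.5, 415, 376 and 563 CPM, so these ranges overlapped. In a comparison added after the data were seen, 12S was higher in number 14 than in number 108 males (log2 fold change 1.53 ± 0.27 SE, edgeR adjusted p = 0.00718, n = 5 and 4), and 16S was not called (0.84 ± 0.37, edgeR adjusted p = 0.14). Of all genes tested 14.3% were called between these sets, and none of the 13 coding genes was among them. Against number 108 males alone, the triploid log2 fold change was -0.018 for 12S (edgeR adjusted p = 0.974) and -0.27 for 16S (edgeR adjusted p = 0.367). Against number 14 males alone it was -1.53 for 12S (edgeR adjusted p = 6.3e-05) and -1.09 for 16S (edgeR adjusted p = 0.000312).

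Set against 2n males group by group, 16S was called in group 1 and 12S in groups 2 and 3. The 3 comparisons share the same 10 diploid males, and calls in one and not in another do not show that groups differ. In group 1, 16S was lower than in 2n males (-1.07 ± 0.28 SE, edgeR adjusted p = 0.00534) and 12S was not called (-0.44 ± 0.36, edgeR adjusted p = 0.353), where 34% of genes were called. Without group 1 replicates 1 and 2 that 16S value was -0.92 (edgeR adjusted p = 0.0606). In group 2, 12S was lower than in 2n males (-1.21 ± 0.38 SE, edgeR adjusted p = 0.015) and 16S was not called (-0.63 ± 0.28, edgeR adjusted p = 0.0743), where 35.2% of genes were called. In group 3, 12S was lower than in 2n males (-1.30 ± 0.35 SE, edgeR adjusted p = 0.00466) and 16S was not called (-0.52 ± 0.26, edgeR adjusted p = 0.0997), where 44.4% of genes were called. Against number 108 males alone, no 12S change passed the threshold: the log2 fold changes were 0.50 for group 1, -0.29 for group 2 and -0.38 for group 3 (edgeR adjusted p = 0.2, 0.423 and 0.26). The 16S change of group 1 still did, at -0.61 (edgeR adjusted p = 0.0264). Among the 13 coding genes, ND4L, a membrane subunit of complex I, was lower in group 2 than in 2n males (-0.55, edgeR adjusted p = 0.0203), and it was the only coding gene called in these 3 comparisons. The coding median was -0.028 in group 1, -0.14 in group 2 and 0.017 in group 3, beside -0.053, -0.11 and -0.10 over all genes tested.

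**Figure D2:**
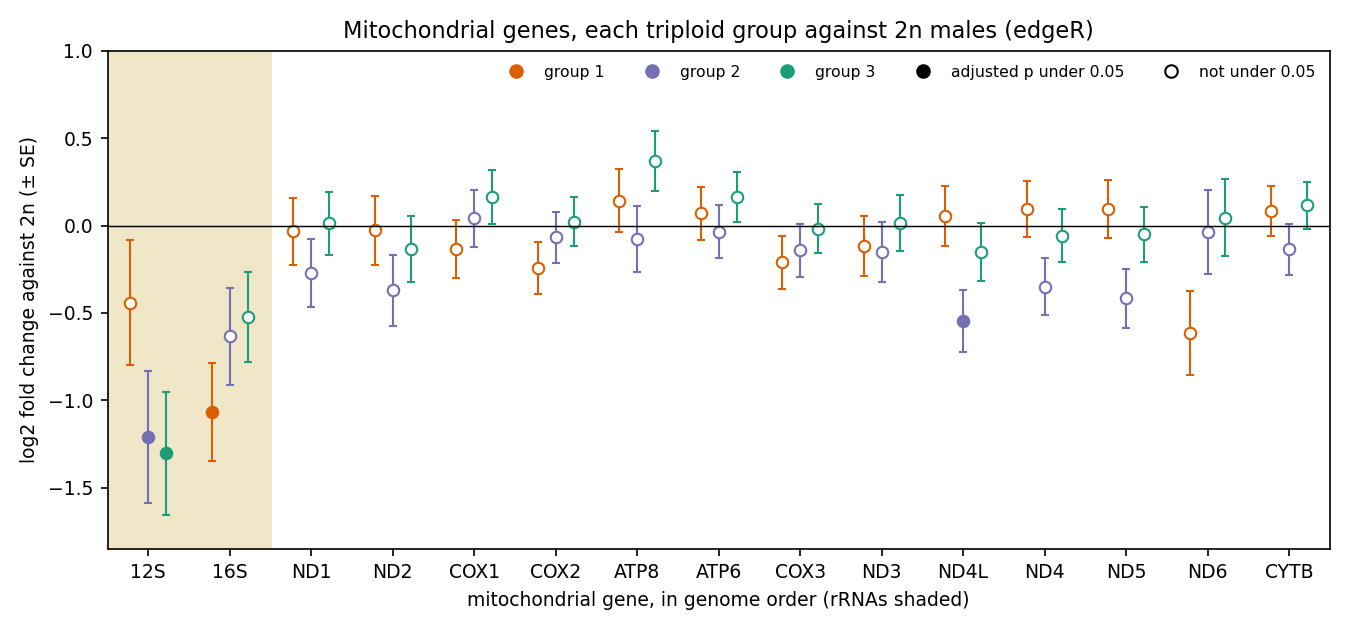
Log2 fold change against 2n males with its standard error, for the 15 rRNA and coding genes in genome order, in group 1, group 2 and group 3. Filled points have an edgeR adjusted p under 0.05: 12S in groups 2 and 3, 16S in group 1 and ND4L in group 2. The remaining coding values lie between -0.61 (ND6, group 1) and 0.37 (ATP8, group 3).

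Between group 1 and the other triploid groups, 12S and 16S had log2 fold changes of opposite sign, none of which passed the test in the 4-group fit. For group 1 against group 2 the log2 fold change was 0.77 ± 0.41 (SE) for 12S and -0.43 ± 0.31 for 16S, neither called (edgeR adjusted p = 0.126 and 0.254), while 47.9% of genes were. For group 1 against group 3 it was 0.86 ± 0.39 for 12S and -0.54 ± 0.30 for 16S, again not called (edgeR adjusted p = 0.0642 and 0.123), while 56.5% of genes were. This fit shares 1 estimate of spread with the uneven 2n males. With only the males of groups 1 and 3 fitted, 12S was higher in group 1 (0.89, edgeR adjusted p = 0.0143) and 16S was lower (-0.51, edgeR adjusted p = 0.0092), and with only groups 1 and 2 fitted 12S was higher (0.78, edgeR adjusted p = 0.0486). The shares of all genes called in these 2-group fits are not given here. In the 4-group fit, which did not call the rRNAs, they were 56.5% and 47.9%, and a 2-group fit can call another share. Without the shares of their own fits, these calls cannot set the rRNAs apart from other genes. The 12S levels of group 1 do not overlap those of groups 2 and 3 in CPM, but scaling by TMM puts group 1 replicate 1 at 8.26 CPM, inside the range of the others. With library totals only, the 16S value of group 1 against group 2 turned to 0.014. That scaling moves the median of all genes in this comparison to 0.58, against 0.10 with TMM. Among the coding genes, the complex I subunits ND4L (0.60), ND4 (0.45) and ND5 (0.51) were higher in group 1 than in group 2 (edgeR adjusted p = 0.0175, 0.0484 and 0.0321), and ND6 was lower in group 1 than in group 3 (-0.66, edgeR adjusted p = 0.0367).

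Group 2 and group 3 differ by temperature and, for 2 males of group 3, by library-name number, and no difference was detectable at the errors of this fit. The log2 fold change was 0.09 ± 0.40 (SE) for 12S and -0.11 ± 0.30 for 16S (edgeR adjusted p = 1 for both). With group 3 limited to the 4 males of number 11, the number of all group 2 males, it was 0.19 and -0.13 (edgeR adjusted p = 1 for both). Of 42352 genes 0% were called by edgeR's quasi-likelihood test, with 1073 genes at an unadjusted p under 0.05 and 1 gene called by DESeq2 and 1 by limma-voom.

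Set against the coding genes of the same library, the rRNAs can be compared without scaling to the nuclear RNA. The 12S counts, as a percentage of the summed counts of the 13 coding genes, were 0.155, 0.221, 0.316, 0.144 and 0.25% in group 1 and 0.156, 0.14, 0.152, 0.0953 and 0.123% in group 2. In group 3 the lowest, median and highest values were 0.0825, 0.118 and 0.123%, and in 2n males 0.106, 0.257 and 0.465%. Group 1 lay above group 3 without overlap and overlapped group 2, and the 2n males overlapped all 3 triploid groups. The 16S counts were 3.17, 3.06, 2.85, 2.21 and 3.01% of the coding counts in group 1 and 3.89, 3.74, 4.85, 3.34 and 3.23% in group 2. For 16S the lowest, median and highest percentages were 3.27, 3.59 and 4.40% in group 3 and 2.60, 4.70 and 9.49% in 2n males. All 5 group 1 males had a lower 16S percentage than any male of groups 2 and 3. Such separation was not particular to 16S. Set against the other coding genes, ND4L, ND4 and CYTB also separated group 1 from group 2 and from group 3. COX1 and ND5 separated group 1 from group 2 as well. Each of these had the smallest exact permutation p possible, 0.00794 against group 2 and 0.00216 against group 3.

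**Figure D3:**
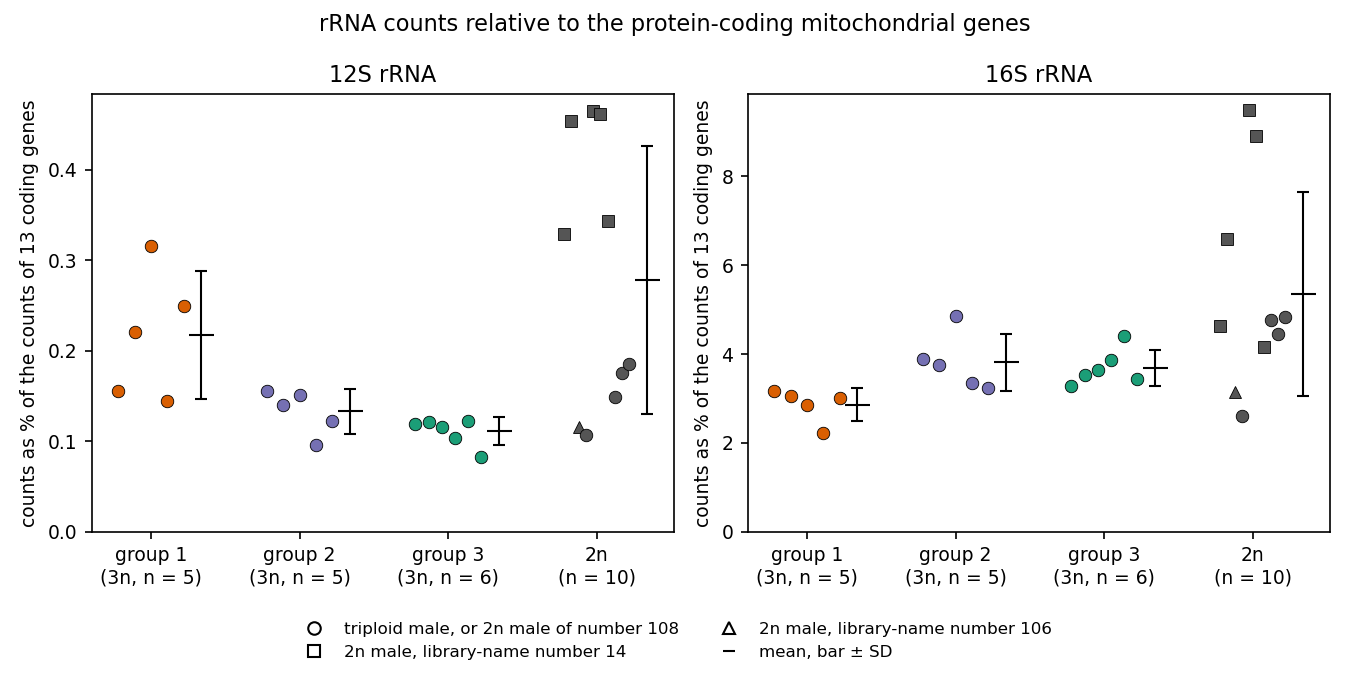
Counts of 12S (left) and 16S (right) as a percentage of the summed counts of the 13 coding mitochondrial genes, 1 point per male, with the mean and SD beside each group. In group 1 the 12S percentages of 0.144 to 0.316% lie above those of group 3, and the 16S percentages of 2.21 to 3.17% lie below those of groups 2 and 3.

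These ratios were tested on the log2 scale with exact two-sided permutation tests over males, adjusted over 105 tests of the 15 genes in 7 comparisons, of which 4.76% were called. Relative to the coding genes, 12S was higher in group 1 than in group 3 by 0.92 (exact permutation adjusted p = 0.0455) and 16S was lower by a difference of -0.37 (exact permutation adjusted p = 0.0455). Both had a raw p of 0.00216, the smallest that 5 against 6 males can give, and in both the groups did not overlap. With any 1 of the 11 males left out the differences ran from 0.77 to 1.05 for 12S and from -0.41 to -0.28 for 16S. No call was left in those fits, but the smallest raw p they allow is higher, 0.00476 or 0.00794, and it was reached in 11 of 11 fits for 12S and 10 of 11 for 16S. The other 3 calls were coding genes set against the remaining 12, ND4L, ND4 and CYTB, a complex III subunit, all higher in group 1 than in group 3. All 5 calls fell among the 15 tests of group 1 against group 3, so they do not set the rRNAs apart from the coding genes. They had the same raw p, and the adjusted p of 0.0455 depends on all 5 sharing it. For group 1 against group 2 the differences were 0.67 for 12S and -0.41 for 16S, which missed the threshold (exact permutation adjusted p = 0.126 and 0.0535). The raw permutation p of 16S there, 0.00794, was the smallest that 5 against 5 males can give. The miss alone therefore does not make it weaker than the call against group 3. For all triploid against 2n males they were -0.76 for 12S and -0.54 for 16S (exact permutation adjusted p = 0.0535 and 0.0502). Against number 14 males alone these became -1.52 and -0.90 (exact permutation adjusted p = 0.00516 and 0.0129), and against number 108 males alone -0.088 and -0.24 (exact permutation adjusted p = 0.852 and 0.287). Against 2n males by group, the 12S differences were -0.21 for group 1, -0.88 for group 2 and -1.13 for group 3 (exact permutation adjusted p = 0.703, 0.132 and 0.0535). The matching 16S differences were -0.80, -0.39 and -0.43 (exact permutation adjusted p = 0.0694, 0.33 and 0.242). For group 2 against group 3 the differences were 0.26 for 12S and 0.04 for 16S (exact permutation adjusted p = 0.271 and 0.789), and with only males of number 11 they were 0.32 and -0.017 (exact permutation adjusted p = 0.272 and 0.941).

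The balance of the rRNAs needs no scaling at all, since it is the ratio of 2 counts from 1 library. There were 20.5, 13.8, 9.04, 15.3 and 12.1 counts of 16S per count of 12S in group 1, and 25.0, 26.7, 32.0, 35.1 and 26.3 in group 2. In group 3 the lowest, median and highest ratios were 27.4, 33.6 and 41.5. Diploid males of number 14 had ratios of 14.0, 14.5, 20.4, 19.3 and 12.1, those of number 108 had 24.4, 32.1, 25.4 and 26.1, and the male of number 106 had 27.2. The ratio thus stayed at or under 20.5 in group 1 and in number 14 diploid males, and at or over 24.4 in groups 2 and 3 and in the remaining diploid males. The means were 14.1 ± 4.24 in group 1, 29.0 ± 4.32 in group 2, 33.8 ± 5.36 in group 3 and 21.6 ± 6.57 in 2n males (SD, n = 5, 5, 6 and 10). The ratio is given as a description, with no test, and the part of the library-name number in it was not tested. This split of the males was read from the same values. How many other pairs of genes split them this way was not counted, so it does not set the rRNAs apart. Group 1 and number 14 males reached a low ratio at different 16S levels, 206 to 329 CPM in group 1 and 379 to 1162 CPM in number 14 males. Within group 1, the library names of replicates 1, 2 and 3 end in 31 and those of replicates 4 and 5 in 28, and their ratios of 9.04 to 20.5 and 12.1 to 15.3 overlap.

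**Figure D4:**
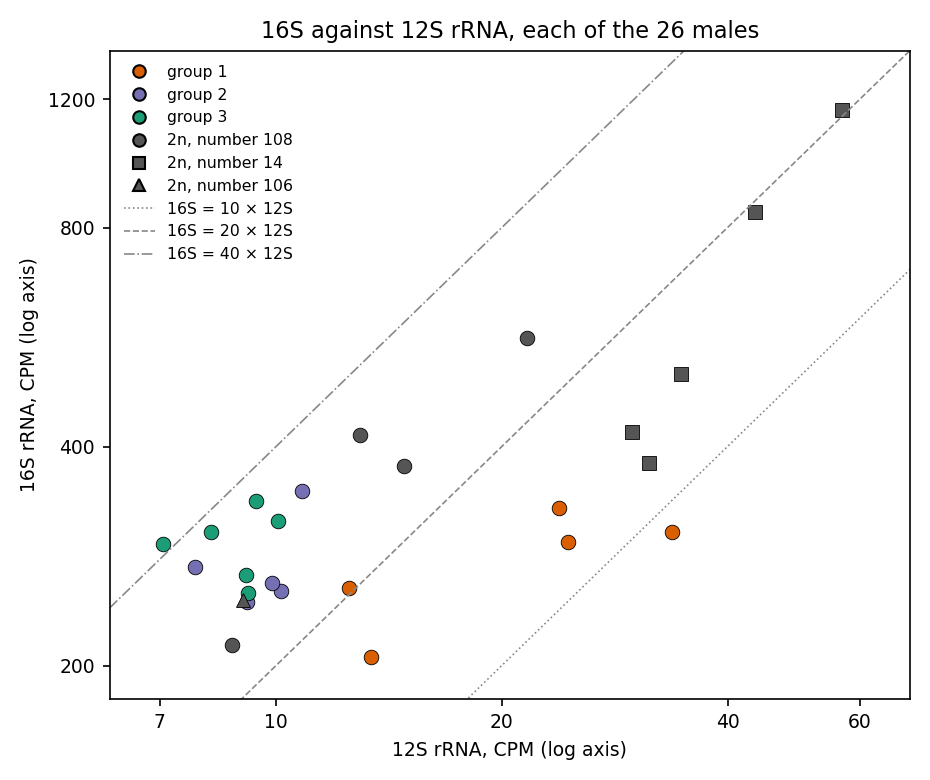
Level of 16S (vertical, log axis) against 12S (horizontal, log axis) in CPM, 1 point per male, with lines of equal 16S to 12S ratio at 10, 20 and 40. Group 1 and the 2n males of number 14 lie near or below the line at 20, with ratios up to 20.5, and groups 2 and 3 and the remaining 2n males lie above it, with ratios of 24.4 and more.

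The spread between males of a group, as the SD of log2 CPM, was also compared among the 15 genes. In group 1 the SD of 12S, 0.62, was the highest of the 15, and that of 16S, 0.27, stood at place 4. In group 2 the SDs of 0.18 for 12S and 0.20 for 16S stood at places 12 and 11, and in group 3 those of 0.18 and 0.16 at places 3 and 4. Among 2n males the SD was 0.95 for 12S and 0.74 for 16S, above that of all 13 coding genes, and 0.22 for COX1, the lowest. The 2n SD of 12S includes the gap between number 14 males (29.8 to 56.9 CPM) and the remaining 2n males (8.74 to 21.6 CPM). No test was run on these spreads.

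The genes off the mitochondrial sequence most like each rRNA were found by Spearman's rho of TMM-scaled log2 CPM over the 26 males, among 28610 genes. For 12S these were ENSCARG00000014179 on chromosome 7 (24753811 to 24781148, + strand, rho 0.80) and ENSCARG00000025844 on chromosome 45 (954273 to 967445, - strand, rho 0.79). Their mean levels were 125 and 3.48 CPM in group 1, 67.9 and 2.73 in group 2, 60.3 and 1.64 in group 3 and 113 and 6.03 in 2n males. For 16S they were ENSCARG00000024962 on chromosome 44 (5928414 to 5935611, - strand, rho 0.83) and ENSCARG00000000143 on chromosome 2 (4657050 to 4666491, + strand, rho 0.79). These averaged 1.24 and 9.58 CPM in group 1, 1.82 and 7.77 in group 2, 2.19 and 8.22 in group 3 and 3.57 and 12.0 in 2n males. Coordinates are those of the goldfish annotation, the files give these IDs no names, and the rho values are descriptions over males that share groups. They are the highest of 28610 genes, while 12S and 16S had a rho of 0.55 with each other. With COX2, rho was 0.59 for 16S and 0.34 for 12S. After group means were removed, Pearson's r was 0.86 between the 2 rRNAs. With COX2, the coding gene of highest r for both, it was 0.75 for 16S and 0.70 for 12S. Pearson's r was then 0.77 and 0.79 for the 2 genes most like 12S, and 0.64 and 0.66 for those most like 16S. The gap by library-name number among 2n males remains in these r values.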

How the data were processed

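Testis RNA of 26 males was sequenced, 1 library each. Per the labels' protocols, RNA with an integrity number above 7 was poly(A) enriched and made into directional libraries with adapters carrying molecular identifiers. Tools named, without a role, in the submitters' processing notes are STAR 2.7.3a, cutadapt 4.3, Subread 2.0, Picard 2.25.6, FastQC, featureCounts and MultiQC 1.10.1. The authors deposited raw counts, made per the file headers by featureCounts 2.0.6 over exons by gene, in reverse-stranded mode (setting 2), from proper pairs of 1 to 25000 bases with no mapping quality minimum (0), on the goldfish annotation ASM336829v1. The command held no option for multi-mapping pairs or pairs that overlap more than 1 gene. Use of the molecular identifiers, and any loss of gibel carp reads on the goldfish sequence, are not given in the sources used here.

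Groups came from the sample labels. Counts were tested with edgeR 4.0.16 (limma 3.58.1, R 4.3.3): TMM scaling, the edgeR filter (minimum count 10), robust quasi-likelihood fits and Benjamini-Hochberg adjustment over all genes, in a 2-group model for 3n against 2n (39578 genes) and a 4-group model for the rest (42352 genes). Ratios to coding genes were compared by exact two-sided permutation of males, adjusted over 105 tests. The genes named are the 2 rRNAs, coding genes called or at the ends of their range, and the 2 genes most like each rRNA by Spearman's rho among genes whose log2 CPM (prior count 2) averaged 1 or more. The members and lists were chosen with earlier results of these data known. Alternatives were other scalings and filters, DESeq2 1.42.0, limma-voom with sample weights, a replicate block, subsets of males, other denominators and each male left out, with the older edgeR dispersion estimate, the comparison within 2n males and the fit on males of number 11 added after the data were seen. Both tests were tried on simulated data in which males were independent. Those simulations held no split by library-name number, so they give no error rate for data with such a split. No 2 libraries of a group held identical counts (lowest chi-square per gene 3.31).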

Additional observations from a re-analysis of the deposited data

Results flagged for a closer look

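The 16S level of group 2 replicate 3, 347 CPM, lay apart from the other 4 males of group 2, which had 245 to 273 CPM. Its gap to the nearest male was 0.72 of the group's range, above Dixon's critical value of 0.71 for 5 samples. This was looked at for 5 measures of the 2 rRNAs in each of the 4 groups, 20 sets of values in all, and chance flags about 1 in 20.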

How the results depend on the processing

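The edgeR calls of 12S and 16S in all triploid against 2n males, of 16S in group 1 and of 12S in groups 2 and 3 held under RLE and upper quartile scaling, library totals, no filter, DESeq2, limma-voom and the older dispersion estimate, and with each male left out. With 2n males limited to number 108, 16S in group 1 held (-0.61) and the others did not: all triploid 12S -0.018 and 16S -0.27, group 2 12S -0.29, group 3 12S -0.38, with group 1 12S reversed at 0.50 (and 0.47 as a ratio to the coding genes). With number 14 only, group 1 12S (-1.01), group 2 16S (-1.03) and group 3 16S (-0.91) were called, as were the ratios of all triploid males (12S -1.52, 16S -0.90), group 1 (-0.96, -1.17), group 3 (-1.89, -0.80) and group 2 12S (-1.63). Library totals only added 16S in group 2 (-0.89) and group 3 (-0.80) against 2n and 12S in group 1 against group 2 (1.18) and group 3 (1.29), and reversed 16S of group 1 against group 2 (0.014). Limma-voom added 12S of group 1 against group 2 (0.95) and group 3 (1.06) and 16S against group 3 (-0.45), and reversed the uncalled 12S of group 1 against 2n (0.078). Upper quartile scaling added 12S of group 1 against group 3 (1.06), and fitting only 2 groups added 12S of group 1 against group 2 (0.78) and group 3 (0.89) and 16S against group 3 (-0.51). The cause was not tested. Without group 1 replicates 1 and 2, 16S of group 1 against 2n was -0.92 and no longer called, 12S of group 1 against group 3 was 1.15 and called, and the ratios of group 1 against group 3 were 1.03 and -0.46, not called with fewer males, where the smallest raw p possible was reached (0.0119). The mean of log2 coding counts as denominator gave 0.84 and -0.46 there, not called (exact permutation adjusted p = 0.0524 for both).

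With each male left out, calls changed for 12S of group 1 against group 3 (0.62 to 1.04, called without group 1 replicate 1 or 4) and for 16S against 2n in group 2 (-0.74 to -0.42) and group 3 (-0.63 to -0.32), both called without 2n replicate 3 or 4. Ratio calls changed for group 1 against group 3 (12S 0.77 to 1.05, 16S -0.41 to -0.28), all triploid against 2n (12S -0.90 to -0.66, 16S -0.64 to -0.43), group 3 12S (-1.26 to -1.03) and group 1 16S (-0.91 to -0.70), and 16S of group 2 against group 3 ran from -0.052 to 0.094, below 0 without group 2 replicate 3. Leaving out 2n replicate 3, 4 or 10 called both triploid ratios and the group 3 12S ratio, leaving out group 2 replicate 1 or 3 called the triploid 16S ratio, and leaving out 2n replicate 4 called the group 1 16S ratio.

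Pairing by replicate number was checked on same-numbered pairs only: of 31 pairs 5 had deviations correlated over 0.1 (-0.39 to 0.23). Differently numbered pairs were not set beside them, so the check cannot decide whether replicate numbers pair the males. With the replicate block, the triploid changes against 2n were -1.04 for 12S and -0.65 for 16S (edgeR adjusted p = 0.0501 and 0.087). Genes called in that comparison numbered 6537 with the block, 18795 with limma-voom, 15540 without group 1 replicates 1 and 2, and 10089 as reported. For group 1 against 2n they numbered 8168 with 2 groups fitted, 8132 without those replicates and 14395 as reported, and for group 1 against group 2 11868 without them and 20305 as reported. For group 2 against group 3, 2 genes were called with 2 groups fitted. Number 11 is the only library-name number found in more than 1 group. With males of number 11 only, chosen after seeing the data, group 2 against group 3 gave 0.19 and -0.13 as levels and 0.32 and -0.017 as ratios for 12S and 16S, none called, and the 16S ratio changed sign. Permutation within library-name numbers was not run.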
